A study of Mus musculus with 6 samples.

Results

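The collagen genes of mouse small intestine are described here across 6 RNA libraries. They were taken as the rows of the deposited count table whose symbol has the form Col, a number, a and a number, with at least 30 reads summed over the 6 libraries. This gave 42 genes of the 33017 in the table. The members closest to that minimum were Col6a6 with 35 reads and Col9a1 with 48 reads, and just outside it were Col2a1 with 2 reads and Col10a1 with 0. Of the 42 genes, 40 had enough reads to be tested (edgeR's filterByExpr), and Col6a6 and Col9a1 did not.

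The 2 groups are labelled model and control, with 3 libraries each. The series title names simulated microgravity and radiation, and the design text a joint effect of 2 factors, so the question addressed is how the intestinal transcripts of the model group differ from those of controls. The labels give neither strain, sex, age and dose nor how the model was made, and they do not say whether libraries of a group came from separate animals. A p-value here thus reflects only how far single libraries scatter, and that scatter could be technical. The tissue was checked against epithelial markers. The brush border gene Vil1 measured 2092, 2096 and 2128 CPM (reads of the gene over the scaled library total, times 1e6) in the model libraries and 2389, 1991 and 1810 CPM in the control libraries, while Fabp2, the intestinal fatty acid carrier, was listed at 0 in all 6.

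Some features of single libraries stand beside the collagen values. Long transcripts were low in model 1, so its values are also given apart. Model 3 held RNA of pancreatic acinar genes, 6190 CPM summed over the acinar markers in the table, against 27.8 CPM in model 1, 9.23 CPM in model 2 and between 4.92 and 6.89 CPM in control libraries. Control 3 was the only library with more than 0.1 CPM of the fat cell hormone gene Adipoq (11.99 CPM), and its level of the absorptive cell gene Apoa4 was 12.6 CPM, against 945 to 2511 CPM in the other 5 libraries. What part these features play in the collagen values was not tested beyond the fits without a library given below.

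Collagens are secreted or membrane proteins built from chains that wind into a triple helix. Fibril-forming collagens (types I, III and V) give the gut wall its tensile strength, fibril-associated collagens coat these fibrils, type IV collagen forms the sheet of basement membranes, and type VI collagen makes beaded filaments between fibrils and basement membranes. In the intestine most of this matrix is made by fibroblasts, smooth muscle and vessel cells, while the epithelium contributes mainly to its own basement membrane.

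The collagen content of the libraries varied more within each group than between the groups. Summed over the 42 genes, collagen reads came to 713, 1940 and 1169 CPM in model 1, 2 and 3, and to 2362, 810 and 2400 CPM in control 1, 2 and 3. Model 2 thus lay with control 1 and control 3, while model 1 and model 3 lay nearer control 2. The mean was 1274 ± 620 CPM in model and 1857 ± 907 CPM in control libraries (SD, n = 3 each), a log2 ratio of -0.54. The highest library had 2.72 times the lowest within the model group and 2.96 times within the control group. Collagen took up 0.0588%, 0.196% and 0.113% of all reads in model 1, 2 and 3, and 0.25%, 0.0806% and 0.280% in control 1, 2 and 3. Leaving out 1 library at a time, the log2 ratio of the means ran from -0.98 without model 2 and -0.89 without control 2 to -0.30 without control 3 and -0.25 without model 1. Without model 1 and control 3 together it was -0.03. Without model 1 and model 3 together, which leaves model 2 as the only model library, it was 0.08. In bulk tissue, fewer matrix-producing cells and less collagen RNA per cell cannot be told apart.

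**Figure D1:**
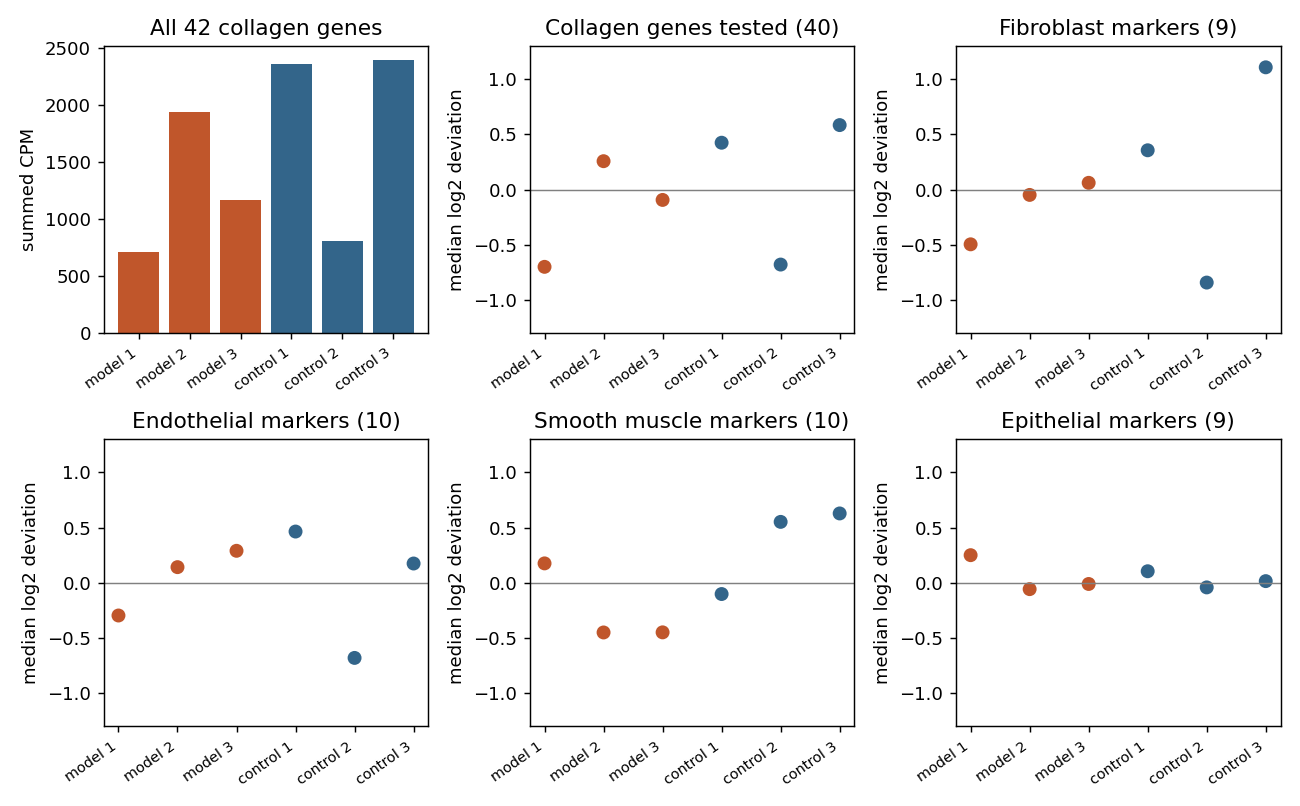
CPM summed over the 42 collagen genes (bars), and the median deviation of log2 CPM from the gene mean for tested collagen genes and for fibroblast, endothelial, smooth muscle and epithelial markers (points), by library; orange is model, blue is control. The collagen sum is 713 to 1940 CPM in model and 810 to 2400 CPM in control libraries, with control 2 low for collagen, fibroblast and endothelial markers but high for smooth muscle markers.

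Of the 40 collagen genes tested, 36 had a log2 fold change (model against control) below 0, where 51.8% of the 15904 genes tested had one. The median over the 40 was -0.48, beside -0.02 over all genes tested. None of the 40 passed the test: edgeR's quasi-likelihood test with Benjamini-Hochberg adjustment called 0% of all genes, and the smallest adjusted p was 0.85 both among collagens and over all genes. At an unadjusted p under 0.05 there were 2 collagen genes lower and 2 higher, where this level held 2.99% of all genes lower and 1.82% higher. Groups did not overlap for 6 of the 40 genes. Of these, 3 lay lower in every model library (6.33% of all genes tested) and 3 higher (4.73%). Leaving out any 1 library left 29 to 35 genes below 0, with the fewest, 29 of 41, without model 1 or without control 1. The median then ran from -0.82 without model 2 to -0.22 without model 1. Without model 1 and control 3 together, 23 of 41 genes were below 0, with a median of -0.045.

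**Figure D2:**
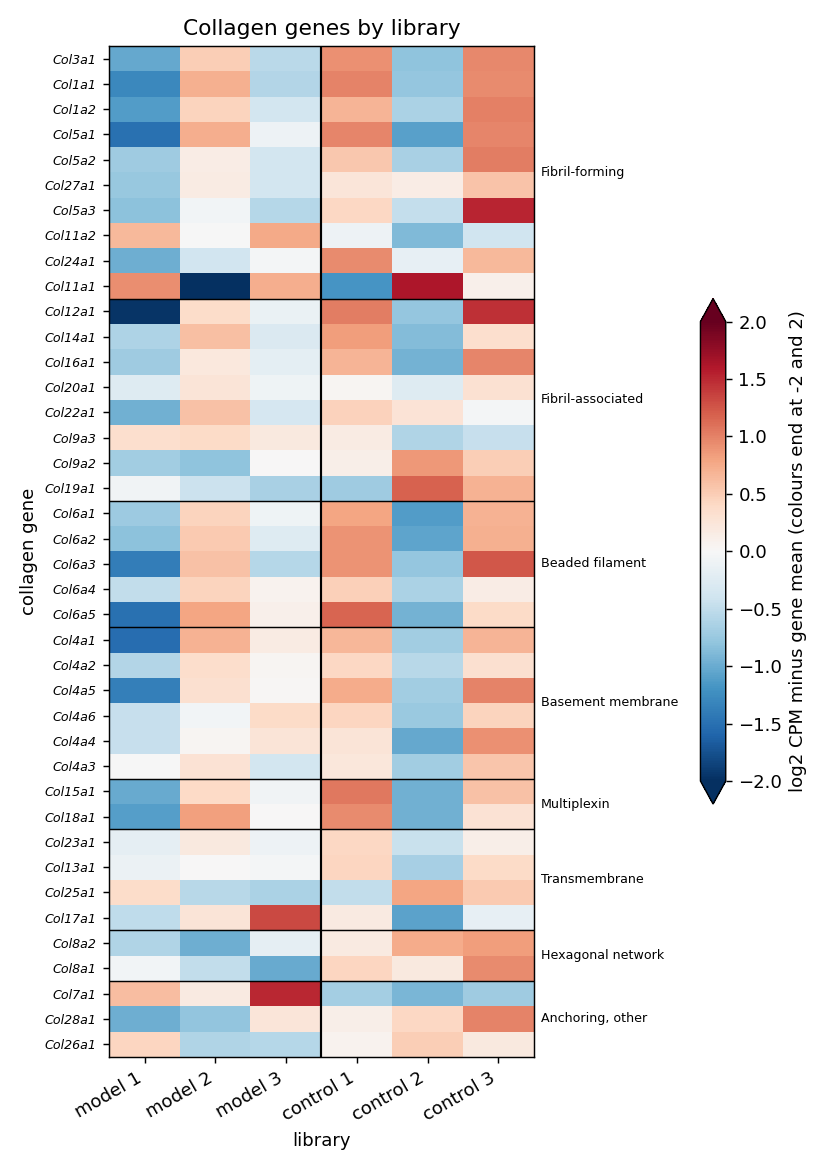
Log2 CPM of each tested collagen gene minus its mean over the 6 libraries (colour), by library and class, with model libraries left of the line. Col3a1, Col1a1, Col1a2, Col5a1, Col5a2 and most beaded filament, basement membrane and multiplexin genes are high in model 2, control 1 and control 3 and low in model 1 and control 2. The other fibril-forming genes do not share this pattern. Col7a1 and Col11a2 are higher, and Col8a1 and Col8a2 lower, in each model library than in each control library.

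Among fibril-forming collagens, type III and type I led. Col3a1, the type III chain of distensible tissue, had 106, 302 and 148 CPM in model 1, 2 and 3, against 407, 124 and 421 CPM in control 1, 2 and 3. Control 2 lay between model 1 and model 3, so the groups overlapped, and the log2 fold change was -0.78 (SE 0.55). Col1a1, the major chain of type I collagen, had 68.4, 272 and 110.5 CPM in the model libraries and 331, 97.5 and 322 CPM in the control libraries. Model 2 was again nearer to control 1 and control 3 than to the other model libraries, and the log2 fold change was -0.74 (SE 0.61). Col1a2, the other type I chain, had 65.4, 193 and 110.1 CPM in the model libraries and 228, 91.3 and 286 CPM in the control libraries, with a log2 fold change of -0.72 (SE 0.51). The order of libraries was the same for Col3a1 and Col1a2, with control 3 highest, model 1 lowest and control 2 the second lowest. Per kilobase of transcript the level of Col3a1, averaged over all 6 libraries, was 45.2 CPM per kilobase, of Col1a1 33.8 and of Col1a2 30.3.

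The minor fibril-forming chains were lower in level. Col5a1 and Col5a2, chains of the type V collagen that limits fibril diameter, averaged 31.4 ± 20.99 CPM in model and 47.0 ± 27.7 CPM in control tissue, and 21.1 ± 6.46 CPM in model and 34.8 ± 17.8 CPM in control tissue (SD, n = 3 each), with log2 fold changes of -0.58 (SE 0.66) and -0.72 (SE 0.43). Col5a3, the rarest type V chain, had 3.05, 5.24 and 3.62 CPM in the model libraries and 7.22, 3.88 and 15.6 CPM in the control libraries. Control 3 was the highest, control 2 lay among the model libraries, and the log2 fold change of -1.17 (SE 0.52) went to -0.33 without model 1 and control 3. Col27a1, a fibrillar collagen known from cartilage, averaged 9.42 ± 3.06 CPM in model and 14.4 ± 2.32 CPM in control tissue (log2 fold change -0.61, SE 0.29). Its groups overlapped at 1 point only, since model 2 at 12.7 CPM lay just above control 2 at 12.6 CPM. Col24a1, another fibrillar chain, averaged 1.04 ± 0.338 CPM in model and 2.08 ± 0.760 CPM in control tissue. Col11a1, a type XI chain of cartilage, measured between 0.0454 CPM in model 2 and 1.31 CPM in control 2.

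Bases before the annotated start of Col1a2 and Col3a1 are shown because these abundant fibrillar genes had the same order of libraries. That order was not particular to them: Col5a1, Col5a2, Col6a3, Col12a1 and Col4a5 had it too. The promoter table held 37 windows for 34 of the 42 genes and none for Col1a1. Each run is the 250 bases before the RefSeq start on the gene's strand, in build GRCm38.p6, which is not the build of the counts (GRCm39). Capitals mark a CCAAT box (CCAAT), a GC box (GGGCGG) or a TATA box (TATAA) on either strand, found by letters alone.
Col1a2 (chr6:4505368-4505617, + strand): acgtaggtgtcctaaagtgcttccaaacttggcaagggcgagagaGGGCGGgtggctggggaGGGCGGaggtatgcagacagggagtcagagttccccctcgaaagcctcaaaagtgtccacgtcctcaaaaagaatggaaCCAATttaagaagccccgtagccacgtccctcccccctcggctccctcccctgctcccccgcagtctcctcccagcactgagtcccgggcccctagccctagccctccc
Col3a1 (chr1:45311288-45311537, + strand): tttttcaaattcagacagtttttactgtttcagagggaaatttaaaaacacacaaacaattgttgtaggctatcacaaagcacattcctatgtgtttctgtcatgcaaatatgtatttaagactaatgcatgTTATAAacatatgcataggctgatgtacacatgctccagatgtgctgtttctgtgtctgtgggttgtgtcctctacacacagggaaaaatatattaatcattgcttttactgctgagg
The Col1a2 window held 2 GC boxes, whose letters begin 205 and 188 bases before the start, and 1 CCAAT box 109 bases before it. The Col3a1 window held neither, and had overlapping TATAA matches on both strands 117 and 118 bases before the start. Over all collagen windows 59.5% held a GC box, 35.1% a CCAAT box and 16.2% a TATA box, beside 32.7%, 33.8% and 22.8% of the 32851 windows of all genes. These are matches of letters and do not show that a factor binds there.

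Type VI collagen, the beaded filament around cells, followed the same libraries. Col6a1 had 74.1, 166 and 115 CPM in model 1, 2 and 3, against 211, 56.7 and 199 CPM in control 1, 2 and 3. Control 2 was the lowest of all 6 libraries, and the log2 fold change was -0.39 (SE 0.51). Its neighbour on the chromosome and partner chain Col6a2 had 62.4, 159 and 93.0 CPM in the model libraries and 207, 53.3 and 182 CPM in the control libraries, with control 2 lowest again (-0.49, SE 0.53). Col6a3, the longest chain of the filament, had 32.0, 125 and 56.1 CPM in the model libraries and 156, 48.6 and 198 CPM in the control libraries. Here model 1 was lowest and control 3 highest, and the log2 fold change was -0.92 (SE 0.62) with all libraries and -0.57 without model 1. Col6a4, whose chain can stand in for that of Col6a3, averaged 76.2 ± 23.7 CPM in model and 76.8 ± 27.7 CPM in control tissue (-0.01, SE 0.34), and its sign differed between scalings. Col6a5 averaged 9.73 ± 6.37 CPM in model and 12.6 ± 8.06 CPM in control tissue (-0.37, SE 0.66).

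In basement membranes, Col4a1 and Col4a2 encode the chains found in nearly every tissue. Col4a1 had 31.6, 147 and 102 CPM in the model libraries and 144, 56.4 and 146 CPM in the control libraries, with model 1 the lowest and model 2 the highest of the 6. Col4a2 had 66.4, 128 and 103 CPM in the model libraries and 134, 68.3 and 125 CPM in the control libraries. Model 1 and control 2 were nearly equal for this chain, and the log2 fold changes were -0.30 (SE 0.57) for Col4a1 and -0.14 (SE 0.34) for Col4a2. Both turned positive without model 1, at 0.11 and 0.08. Col4a5, a chain known from kidney and smooth muscle basement membrane, averaged 5.83 ± 2.97 CPM in model and 9.44 ± 4.77 CPM in control tissue (-0.69, SE 0.56). The remaining chains Col4a3, Col4a4 and Col4a6 had group means between 0.935 and 4.56 CPM and log2 fold changes between -0.28 and -0.13. Col15a1 and Col18a1, multiplexins of the basement membrane zone of which Col18a1 yields endostatin, averaged 24.1 ± 10.8 CPM in model and 35.8 ± 20.8 CPM in control tissue, and 23.0 ± 14.0 CPM in model and 26.0 ± 15.1 CPM in control tissue, with log2 fold changes of -0.57 (SE 0.54) and -0.17 (SE 0.58).

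Fibril-associated collagens coat fibrils without forming any. Col12a1, the longest collagen transcript of the set at 11511 bases, averaged 22.0 ± 14.0 CPM in model and 48.2 ± 29.7 CPM in control tissue (log2 fold change -1.13, SE 0.68). Its 6.89 CPM in model 1 stood 10.7 times below the 73.9 CPM of control 3, and without model 1 the log2 fold change was -0.70. Col14a1 averaged 31.4 ± 14.4 CPM in model and 37.9 ± 19.7 CPM in control tissue (-0.27, SE 0.47), and Col16a1 averaged 9.13 ± 2.84 CPM in model and 14.2 ± 7.82 CPM in control tissue (-0.63, SE 0.49). Col20a1 was the steadiest abundant member, between 4.67 and 6.76 CPM in model and between 4.70 and 6.93 CPM in control libraries (-0.06, SE 0.29). Of the rare members, the cartilage chain gene Col9a3 lay higher in every model library (1.197 to 1.36 CPM) than in every control library (0.668 to 1.17 CPM), and its partner Col9a2 lay lower in every model library (0.318 to 0.598 CPM) than in every control library (0.647 to 1.12 CPM). Neither had an unadjusted p under 0.05 by edgeR's fit over all genes (0.21 and 0.089). Col19a1 and Col22a1 had group means between 0.358 and 1.52 CPM with overlapping groups.

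Transmembrane collagens sit in the plasma membrane and shed their outer part. Col23a1 averaged 17.7 ± 2.47 CPM in model and 18.8 ± 5.34 CPM in control tissue (-0.08, SE 0.26), with 1.81 times between the highest and the lowest library. Col13a1 averaged 4.43 ± 0.202 CPM in model and 5.01 ± 1.86 CPM in control tissue. Col25a1 had group means of 1.06 CPM in model and 1.59 CPM in control tissue. Col17a1, the hemidesmosome collagen of epithelia, measured 0.381, 0.680 and 1.48 CPM in model 1, 2 and 3, against 0.647, 0.241 and 0.499 CPM in control 1, 2 and 3. Its log2 fold change of 0.87 (SE 0.68) was 0.21 without model 3. Of the members with other structures, Col28a1 averaged 0.694 ± 0.363 CPM in model and 1.39 ± 0.455 CPM in control tissue, and Col26a1 averaged 0.510 ± 0.248 CPM in model and 0.699 ± 0.116 CPM in control tissue, both with overlapping groups.

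The largest positive log2 fold change among the 40 genes was that of Col7a1, which encodes the anchoring fibril that ties an epithelial basement membrane to the matrix below it. Col7a1 had 8.45, 6.26 and 15.7 CPM in model 1, 2 and 3, against 3.42, 2.89 and 3.32 CPM in control 1, 2 and 3. Every model library lay above every control library, with model 3 the highest, and the log2 fold change was 1.66 (SE 0.38, edgeR unadjusted p = 0.0030, adjusted p = 0.85). DESeq2, run as an alternative, called it as the only collagen gene (log2 fold change 1.69, SE 0.41, adjusted p = 0.033), in a test that called 0.157% of all genes. That call held without model 2 (adjusted p = 0.0016) and was lost without any of the other 5 libraries (DESeq2 adjusted p = 0.078 to 0.21). Without model 3, the library with acinar RNA, edgeR's log2 fold change was 1.198, and without model 1 it was 1.77. Col11a2, a type XI chain, had 6.68, 4.22 and 7.21 CPM in the model libraries and 3.94, 2.27 and 3.21 CPM in the control libraries. The groups were apart, with model 2 closest to control 1, and had a log2 fold change of 0.94 (SE 0.35, edgeR unadjusted p = 0.030, adjusted p = 0.85) that was 0.86 without model 1 and 0.80 without model 3.

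The bases before the Col7a1 start are given because Col7a1 had the largest of the 4 positive log2 fold changes (the others were Col11a2, Col17a1 and Col9a3). The window starts with an inverted CCAAT box, 249 bases before the start, and holds 1 GC box 61 bases before it.
Col7a1 (chr9:108953336-108953585, + strand, GRCm38.p6, RefSeq): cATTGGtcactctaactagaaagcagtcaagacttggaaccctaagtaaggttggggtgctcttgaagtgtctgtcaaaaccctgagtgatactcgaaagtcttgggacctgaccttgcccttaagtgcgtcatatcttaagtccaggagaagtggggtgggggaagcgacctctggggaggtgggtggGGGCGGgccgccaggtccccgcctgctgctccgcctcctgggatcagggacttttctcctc

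Both chains of type VIII collagen, a short-chain collagen that forms a hexagonal net in vessel walls, lay lower in all 3 model libraries. Col8a2 had 1.83, 1.41 and 2.48 CPM in model 1, 2 and 3, against 3.21, 4.76 and 5.06 CPM in control 1, 2 and 3. The groups did not overlap, control 2 was among the high libraries here, and the log2 fold change was -1.19 (SE 0.36, edgeR unadjusted p = 0.013, adjusted p = 0.85). Col8a1 had 1.21, 0.885 and 0.598 CPM in the model libraries and 1.71, 1.44 and 2.47 CPM in the control libraries, a log2 fold change of -1.06 (SE 0.45, edgeR unadjusted p = 0.048, adjusted p = 0.85). Over 18 alternatives each, the log2 fold change stayed between -1.61 and -1.001 for Col8a2 and between -1.33 and -0.80 for Col8a1. Reads were few: Col8a2 had 53, 62 and 87 in the model libraries and 154, 178 and 213 in the control libraries, and Col8a1 had 35, 39 and 21 in the model libraries and 82, 54 and 104 in the control libraries. Smooth muscle markers moved in the same direction. All 10 tested had log2 fold changes below 0 (51.8% of all genes), with a median of -0.73, 3 of the 10 were lower in every model library (6.33% of all genes), none was at 0, and their sum was 1005 to 1303 CPM in model and 1331 to 2215 CPM in control libraries. Much of that sum was the smooth muscle myosin gene Myh11, whose groups did not overlap. It had 294, 379 and 465 CPM in the model libraries and 536, 748 and 842 CPM in the control libraries. The sums of model 1 and control 1 lay close, at 1303 and 1331 CPM, with Myh11 at 294 and 536 CPM in them. The 3 markers without overlap, Myh11, Synpo2 and Myocd, have the longest transcripts of the 10 (6549, 9203 and 5114 bases). Each was lowest in model 1, where long transcripts were low. The others overlapped, with model 1 above control 1 in each, such as Acta2 (309 against 235 CPM) and Des (302 against 208 CPM). Of 7 pericyte markers, which label the mural cells of small vessels, 6 were tested, 5 of them with log2 fold changes below 0 (median -0.64), 2 at an unadjusted p under 0.05 and 1 lower in every model library, and none was called by edgeR. Their sum was 223 to 259 CPM in model and 264 to 412 CPM in control libraries, and Higd1b was at 0 in model 1, model 2, control 1 and control 2. Most of that sum was Rgs5, whose groups overlapped. Rgs5 had 174, 124 and 161.5 CPM in the model libraries and 151, 324 and 228 CPM in the control libraries. The marker without overlap was the potassium channel gene Kcnj8. It had 7.48, 6.69 and 5.07 CPM in the model libraries and 8.61, 10.6 and 14.7 CPM in the control libraries. Pdgfrb went the other way, with means of 39.5 CPM in model and 34.2 CPM in control libraries (0.21, SE 0.33). Cspg4, Notch3 and Abcc9, with transcripts of 8121, 8016 and 7499 bases, were each lowest in model 1, where long transcripts were low. The part of smooth muscle and pericytes in the type VIII values was not tested.

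**Figure D3:**
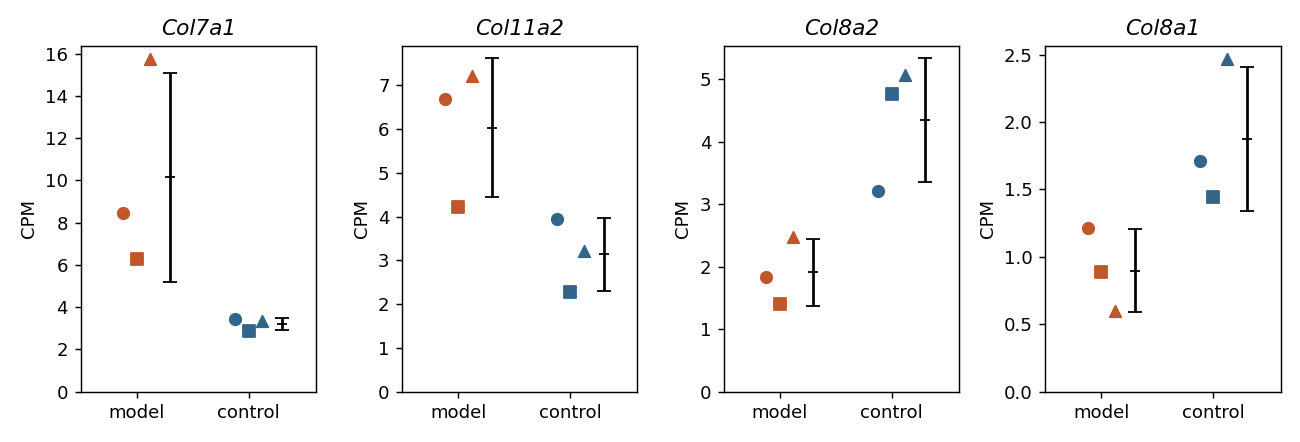
CPM of Col7a1, Col11a2, Col8a2 and Col8a1 in each library (circle, square and triangle for replicate 1, 2 and 3), with the group mean and SD beside the points (n = 3 each). In model against control libraries, Col7a1 lies at 6.26 to 15.7 against 2.89 to 3.42 CPM and Col8a2 at 1.41 to 2.48 against 3.21 to 5.06 CPM, without overlap.

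Across libraries the abundant collagens shared an order. For 22 of the 23 genes with a mean of at least 5 CPM, the 3 highest libraries were model 2, control 1 and control 3, an order that 9.34% of all 10971 genes at that level had. The exception was Col7a1. These 3 libraries were picked from the collagen values themselves, so the counts describe these genes and are not a test. The median ratio of the highest to the lowest library was 4.14 for these 23 genes and 1.90 for all genes at that level. The 17 rarer tested genes behaved less uniformly: control 2 was the highest or second highest library for 7 of them (Col8a2, Col25a1, Col28a1, Col9a2, Col26a1, Col11a1 and Col19a1) and for 0 of the 23.

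Markers of matrix-producing cells were set beside this order, as median deviations of log2 CPM from the gene mean. Tested collagens stood at -0.70, 0.26 and -0.09 in model 1, 2 and 3 and at 0.42, -0.68 and 0.58 in control 1, 2 and 3. Fibroblast markers stood at -0.50, -0.05 and 0.06 in the model libraries and at 0.36, -0.84 and 1.11 in the control libraries. Of these 10 markers 9 were tested, 7 with log2 fold changes below 0 (median -0.62). The sum of the 10 ran from 482 to 600 CPM in model and from 372 to 665 CPM in control libraries, with Twist2 at 0 in model 1. Much of that sum was Fbln1, at 398, 211 and 226 CPM in the model libraries and 273, 230 and 79.1 CPM in the control libraries. Its log2 fold change was 0.52 (SE 0.48). Endothelial markers stood at -0.30, 0.14 and 0.29 in the model libraries and at 0.46, -0.68 and 0.17 in the control libraries. Of these 10 markers 5 had log2 fold changes below 0 (median 0.006). Fibroblast and endothelial markers were lowest in control 2, and collagens in model 1 and control 2. Smooth muscle markers stood at 0.18, -0.45 and -0.45 in the model libraries and at -0.10, 0.55 and 0.63 in the control libraries, so they were high in control 2, where collagens were low. The part of cell make-up in the collagen values was not tested.

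Transcript length differed between collagens and other genes, with a median of 6084 bases for tested collagens and 3014 bases for all genes tested. In model 1 the median deviation of all genes fell with length, from 0.55 for transcripts under 1000 bases to -0.61 for those of at least 8000 bases. Control 3 had the opposite slope, from -0.28 to 0.38. The 8 collagens of at least 8000 bases stood at -1.17 in model 1 and at 0.73 in control 3. In control 2 the medians of all genes were 0.09 and -0.01 in these bins, and the 8 collagens stood at -0.85. With each library's length trend removed, 29 of 40 tested collagens had log2 fold changes below 0, with a median of -0.34, and 0 were called by edgeR.

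**Figure D4:**
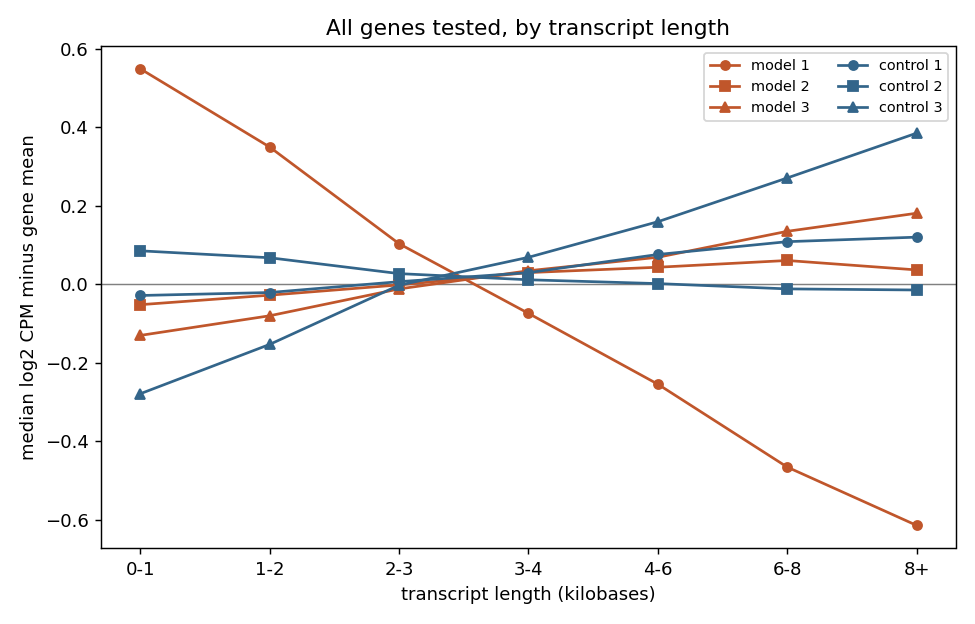
Median deviation of log2 CPM from the gene mean over all genes tested, in bins of transcript length (kilobases), one line per library; orange is model, blue is control. Model 1 falls from 0.55 in the shortest bin to -0.61 in the longest, while control 3 runs from -0.28 to 0.38.

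**Figure D5:**
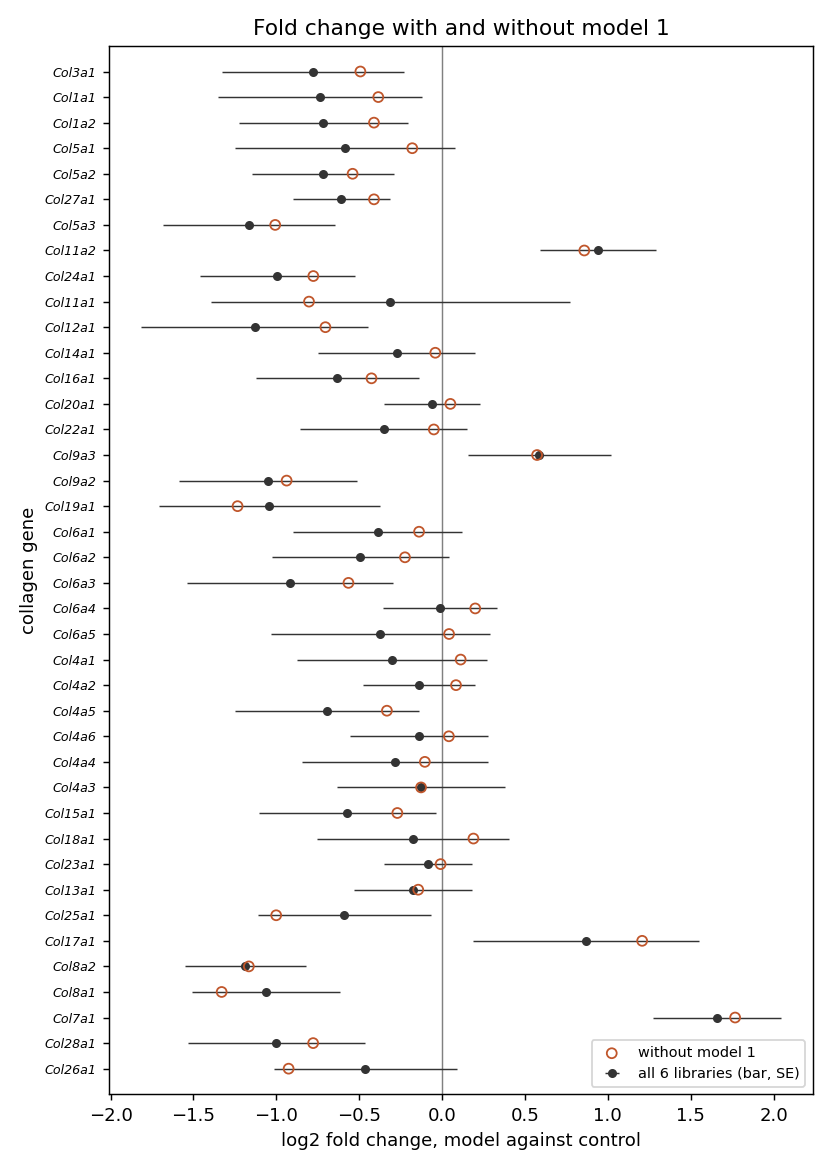
Log2 fold change of each tested collagen gene, model against control, with all 6 libraries (filled, bar is the SE) and without model 1 (open). With all libraries 36 of 40 lie below 0, and the open circles of most abundant genes lie closer to 0, such as Col1a1 at -0.39 against -0.74.

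Ratios between collagen chains within a library are free of the library total. All ratios here compare chains of one collagen type except Col3a1 over Col1a1. The reads of Col1a1 over Col1a2, each per base of transcript, stood at 0.943, 1.27 and 0.905 in model 1, 2 and 3 and at 1.31, 0.963 and 1.02 in control 1, 2 and 3, with overlapping groups. Col3a1 over Col1a1 stood at 1.65, 1.18 and 1.43 in the model libraries and at 1.31, 1.35 and 1.39 in the control libraries. Col6a1 over Col6a2 stood at 1.35, 1.19 and 1.41 in the model libraries and at 1.16, 1.21 and 1.24 in the control libraries. These ratios moved far less than the 3.37-fold range of the collagen sum. Col4a1 over Col4a2 stood at 0.464, 1.12 and 0.963 in the model libraries and at 1.05, 0.804 and 1.14 in the control libraries. The value of model 1 was the lowest. The Col4a1 transcript has 6615 bases and that of Col4a2 has 6450. Their RefSeq starts, on opposite strands, lie 21 bases apart, and the first bases of both transcripts overlap. Col6a3 over Col6a1, a long transcript over a short one, stood at 0.175, 0.304 and 0.198 in the model libraries and at 0.301, 0.348 and 0.404 in the control libraries, overlapping only between model 2 and control 1. Col5a1 over Col5a2 stood at 0.574, 1.49 and 1.19 in the model libraries and at 1.35, 0.736 and 0.967 in the control libraries. None of these 6 ratios passed a two-sided exact permutation test of the mean log2 ratio, added after the values were seen, which cannot go below p = 0.10 with 3 libraries against 3. The smallest exact permutation p was 0.20 for Col6a3 over Col6a1 (Benjamini-Hochberg adjusted over the 6 ratios, 0.84), and the others were 0.30 to 1. At this size, a p above the threshold does not show that the ratios were equal.

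The make-up of the collagen pool was led by 3 classes in every library. Per length, fibril-forming chains were 39.4%, 45.2% and 37.7% of the collagen signal in model 1, 2 and 3, and 46.4%, 45.7% and 50.1% in control 1, 2 and 3. Every model library thus lay below every control library, though model 2 and control 2 were close. In each of the other classes the groups overlapped. Type VI chains were 33.7%, 30.8% and 32.6% in the model libraries and 31.3%, 26.9% and 29.3% in the control libraries. Basement membrane chains were 12.9%, 13.3% and 16.7% in the model libraries and 11.2%, 14.7% and 11.0% in the control libraries. The rare classes varied more: type VIII chains were 0.530%, 0.150% and 0.344% in the model libraries and 0.265%, 1.002% and 0.405% in the control libraries, and the class of Col7a1, Col26a1 and Col28a1 was 1.047%, 0.281% and 1.047% in the model libraries and 0.658% or less in the control libraries. These shares were computed without a test, and a share of one class falls when another rises.

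Genes that make, process and bind collagen were called in none of the lists either. Over all genes tested, 51.8% had a log2 fold change below 0, a share to set beside each list here. Of 18 tested genes for hydroxylation and folding, 11 had log2 fold changes below 0, with a median of -0.22. The most abundant were P4hb, the disulfide isomerase that is also a subunit of prolyl hydroxylase, at 2792 ± 694 CPM in model and 1848 ± 808 CPM in control tissue (0.60, SE 0.43), and Mia3, which loads procollagen into transport carriers, at 112 ± 3.68 CPM in model and 97.7 ± 4.51 CPM in control tissue (0.20, SE 0.16). Serpinh1, the collagen-specific chaperone and named after its values were seen, averaged 54.8 ± 19.4 CPM in model and 87.4 ± 31.8 CPM in control tissue (-0.67, SE 0.35). Of 7 tested genes for propeptide removal 5 were below 0 (median -0.44), with the procollagen C-proteinase Bmp1 at 0.09 (SE 0.31) and its enhancer Pcolce at -0.70 (SE 0.40). Of 5 lysyl oxidases, which cross-link fibrils, 4 were below 0 (median -0.34), with Loxl2 at -0.75 (SE 0.44) and Loxl1 at -0.34 (SE 0.42). Of 10 collagen receptors 9 were below 0 (median -0.51), with the integrin chain Itgb1 at -0.19 (SE 0.21) and the receptor kinase Ddr1 at 0.04 (SE 0.28). Ddr2, Itga1 and Itga2, named after their values were seen, stood at -0.75, -0.45 and -1.14. Their transcripts are long (8590, 10967 and 7108 bases), and each was lowest in model 1 and highest in control 3. Of 12 genes of the TGF-beta axis, a known inducer of collagen transcription, 7 were below 0 (median -0.03), with Smad4 at 0.12 (SE 0.19) and the receptor Tgfbr2 at -0.12 (SE 0.39). The processing and cross-linking lists were highest in control 3 (median deviations of 0.84 and 0.66) and low in model 1 (-0.87 and -0.71) and control 2 (-0.45 and -0.74), as the collagens were. In model 2, where collagens stood at 0.26, the processing list was at -0.01 and the cross-linking list at 0.42. The hydroxylation, receptor and TGF-beta lists stood at -0.35, 0.03 and -0.20 in control 2, where collagens stood at -0.68.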

How the data were processed

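Poly-A RNA of frozen mouse small intestine was sequenced, per the labels' protocols. The authors deposited raw read counts per gene, made with FastQC, Trimmomatic, STAR and featureCounts on GRCm39; the tools and build come from the submitters' processing notes, without versions. For annotation, strand and multi-mapping, settings were not given in the sources used, so reads of overlapping genes on opposite strands may not be told apart. All 6 columns matched a sample by library name (0 unmatched). Totals were 35007515 to 45285564 counts.

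Counts were filtered with filterByExpr (15904 of 33017 genes kept), scaled by TMM and tested with edgeR's quasi-likelihood F test, robust, group as the only term, with Benjamini-Hochberg adjustment over all genes and a threshold of 0.05 (R 4.3.3, edgeR 4.0.16, limma 3.58.1, DESeq2 1.42.0). The SE is the absolute log2 fold change over the square root of F. CPM are TMM-scaled. Deviations use log2 CPM with a prior count of 2. Transcript lengths are those of the longest GENCODE M21 basic transcript of a symbol, on GRCm38 (98.1% of tested genes, all 42 collagens). The pipeline was run on simulated counts with the same dispersion for all genes and no length trend. That run does not show what could be detected in these libraries. No library was a duplicate of another in its group (chi-square over degrees of freedom 111 to 543 for each pair). The labels do not say whether library numbers pair the samples, and the numbers were not taken as pairs. Members and lists were chosen with earlier results of these data known. Named with group means are members of at least 5 CPM on average, with library values for the 8 most abundant and the 5 with the smallest p, plus the 2 most abundant genes of each pathway list. Other genes are named by level or as markers.

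Alternatives were other scalings, DESeq2, limma-voom with and without library weights, other filters, the replicate block, removal of length trends, and left-out libraries.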

Additional observations from a re-analysis of the deposited data

How the results depend on the processing

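Under 18 alternative settings and 1 chosen after the data were seen (model 1 and model 3 left out together, which leaves model 2, the model library richest in collagen, as the only model library, assumed to vary like the controls), edgeR and limma-voom called 0 genes and 0 collagens, with 377 to 991 genes at an unadjusted p under 0.05, while DESeq2 called 25 genes, 1 of them a collagen (Col7a1). The DESeq2 fits of Col7a1 without single libraries were also chosen after the data were seen. The number of collagens with a log2 fold change below 0 was 36 of 40 with all libraries, 23 of 24 with a minimum of 5 CPM in at least 3 libraries, where fewer genes were tested, and 23 of 41 with model 1 left out together with control 3 or with model 3, where fewer libraries were used. The median stayed below 0 in every alternative (-0.82 to -0.045). The log2 ratio of the collagen sum did not, at 0.08 with model 1 and model 3 left out. Scaling by library size alone moved the median of all genes to -0.21 and that of collagens to -0.69. Of 26 named members 14 kept their sign in every alternative.

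The sign of the others was not stable. With the length trend removed, Col4a2 stood at 0.044, Col6a4 at 0.195, Col23a1 at 0.097 and Col20a1 at 0.081 (0.068, 0.234, 0.12 and 0.079 with the replicate block as well). Col6a4 was at 0.019 with RLE scaling and DESeq2, 0.01 with limma-voom, 0.031 with library weights and 0.005 with the replicate block, and Col20a1 was at 0.076 with library weights. Without model 1 and control 3, values were 0.077 (Col6a1), 0.316 (Col4a1), 0.193 (Col4a2 and Col18a1), 0.241 (Col6a4), 0.092 (Col5a1), 0.012 (Col23a1), 0.013 (Col6a5) and 0.194 (Col20a1). Without model 1 and model 3 they were 0.14 (Col1a1), 0.12 (Col6a1), 0.13 (Col6a2), 0.37 (Col4a1), 0.25 (Col4a2), 0.39 (Col6a4), 0.19 (Col5a1), 0.35 (Col14a1), 0.55 (Col18a1), 0.15 (Col23a1), 0.36 (Col6a5) and 0.23 (Col20a1). Leaving out 1 library at a time gave -0.71 to 0.14 for Col14a1, -0.73 to 0.32 for Col18a1, -0.22 to 0.10 for Col20a1, -0.27 to 0.13 for Col23a1, -0.78 to 0.11 for Col4a1, -0.37 to 0.084 for Col4a2, -0.25 to 0.25 for Col6a4 and -0.93 to 0.21 for Col6a5. The cause was not tested.

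The replicate block changed no call, gave a median of -0.48 and 35 of 40 collagens below 0, and lowered the number of genes at an unadjusted p under 0.05 to 537. Deviations of same-numbered libraries correlated at -0.15, -0.27 and 0.31 over genes, so the numbers were not taken as pairs. A minimum of 10 reads left the number of members at 42, and one of 100 gave 40. At few reads per library, as for Col8a1, Col9a2 or Col17a1, counting error limits what can be detected.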
